A study of Mus musculus with 12 samples.

Results

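The first 3 h of B cell activation by lipopolysaccharide (LPS) were taken from an RNA-Seq series of 12 libraries, by comparing the 2 libraries of B cells 3 h after LPS with the 2 libraries of naive B cells, so that 4 of the 12 libraries are described. All mice were C57BL/6 males, of the Pep3b background by the methods of the study, of 6 to 12 weeks, with no allele or transgene given for these samples. Naive B cells were spleen cells sorted directly by B cell surface markers, among them TCRβ- B220+ IgM+ IgDhi, after red cell lysis, with no treatment. The cells at 3 h were instead isolated from spleen by negative selection, labelled with the division dye CellTrace Violet and cultured with 25 µg/ml LPS of Salmonella typhosa, and undivided TCRβ- CD69+ B cells were then sorted. The groups therefore differ in isolation, dye, culture and the CD69 gate as well as in LPS, and these cannot be told apart. The labels call the replicates biological, and the sources used here do not say whether a library pooled several mice. The other 8 libraries (10 h and 33 h after LPS, expanded B cells and plasmablasts of day 4) enter through the filter on low counts, the shared estimate of the spread and 1 count over all LPS libraries.

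LPS is the outer membrane lipid of Gram-negative bacteria. Mouse B cells sense it through TLR4 with MD-2, helped by the related pair CD180 and MD-1, and the receptors signal through MYD88 to the kinases that free NF-kB and start MAP kinase cascades. Primary response genes, among them transcription factors, cytokines and inhibitors that feed back on the same pathways, are transcribed before any new protein is needed, and a resting lymphocyte that receives this signal leaves quiescence, grows, and days later divides and can become an antibody-secreting cell.

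The total counts were 38319954 and 29898781 in naive replicates 1 and 2, and 23026619 and 37947217 in 3 h replicates 1 and 2. A gene was tested where it passed edgeR's filter on low counts, which left 12750 genes, and it was called differentially expressed (DE) where glmTreat placed its change beyond 1.5-fold at a Benjamini-Hochberg adjusted p-value of 0.05. Log2 fold changes are for 3 h over naive and are followed by their standard error (SE). Levels are given as RPKM, read counts normalised to exon length and library size, for replicates 1 and 2 of each group in that order. An exact two-sided permutation test of these 2 and 2 libraries has 0.333 as its smallest p, so the p-values rest on the spread shared across genes and stages. Between replicates, log2 ratios spread across genes with an SD of 0.39 in naive cells and 0.53 at 3 h. Mitochondrial genes took 10.3% and 11.5% of the counts in naive cells and 5.68% and 8.47% at 3 h.

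Most markers of other cell types were lower at 3 h than in the naive libraries. The summed level of 17 myeloid markers was 307 and 146 CPM (counts normalised to library size alone) in naive replicates 1 and 2 against 5.86 and 8.38 CPM at 3 h, and 16 of the 17 tested were DE downwards. Of these, Lyz2 (131 and 54.9 CPM), S100a9 (56.1 and 18.8 CPM) and Csf1r (25.1 and 15 CPM) had at most 0.0527 CPM in either 3 h library. The 11 erythroid and platelet markers summed to 202 and 151 CPM against 1.39 and 1.32 CPM, with the haemoglobin genes Hba-a1 and Hba-a2 at their head, and 7 of 7 tested were DE downwards. The 17 T cell markers summed to 72.5 and 77.9 CPM against 30.7 and 38.7 CPM, and 7 of 13 tested were DE downwards. Lck, which B cells also express, held most of this, while Cd3d (0.522 and 0.569 CPM), Cd3e and Cd3g had no counts at 3 h and Trac, a T cell receptor chain gene, rose from 0.339 and 0.435 CPM to 1.52 and 1.03 CPM. For 14 markers of natural killer and dendritic cells the sums were 30.2 and 26.6 CPM against 84.4 and 60.7 CPM. Zbtb46 alone accounted for 72.9 and 46.0 CPM of the latter and rose, as did Flt3 (2.87 and 2.44 and then 6.91 and 8.83 CPM), and 10 of 13 tested were DE downwards. A marker that is scarce at 3 h can pass the filter on low counts through the naive libraries. The counts of markers DE downwards may therefore be partly set by the filter. Over all tested genes 24.3% were DE downwards. Ptprc, which encodes B220 of the naive gate, was abundant in both groups and DE downwards, at 327 and 337 and then 150.5 and 151 RPKM. The part of other cells in the falls below was not tested, and fewer cells of a type and less RNA per cell cannot be told apart in these bulk samples.

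**Figure D1:**
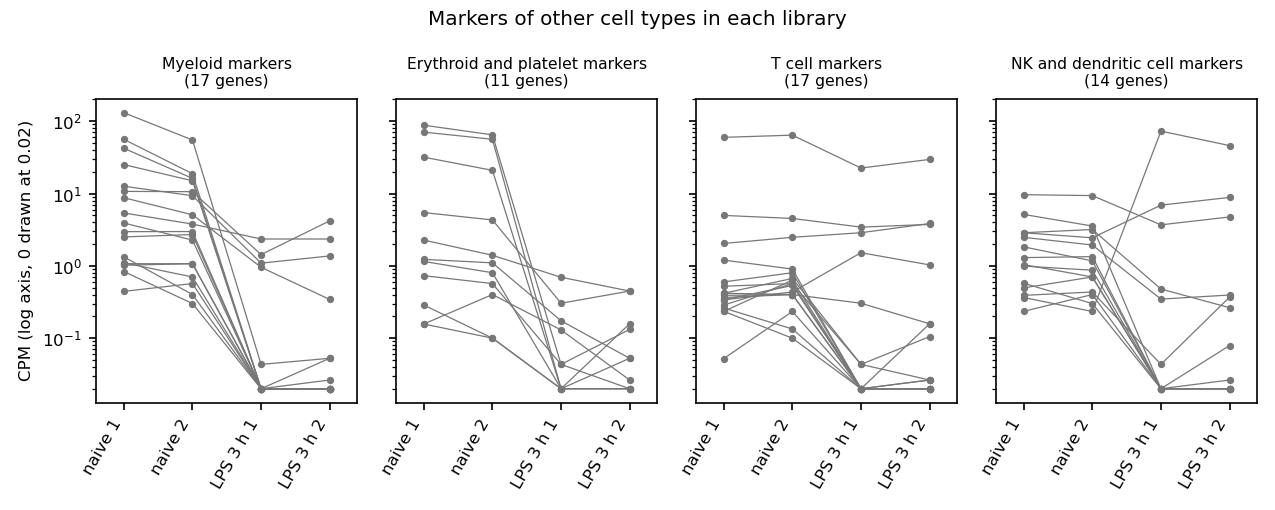
Level in CPM (log axis, a level of 0 drawn at 0.02) of every marker of 4 other cell types in naive replicates 1 and 2 and LPS 3 h replicates 1 and 2, each line being a gene. Most myeloid and erythroid lines drop to the bottom at 3 h, and naive replicate 1 lies above replicate 2 for the strongest of them, as for Lyz2 (131 against 54.9 CPM).

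By 3 h, 2674 genes had risen and 3100 had fallen, which is 21.0% and 24.3% of the genes tested, or 45.3% in either direction. With libraries scaled by their size alone, in place of the trimmed mean of M-values (TMM), the calls became 2091 up and 3716 down, and rises were 36.0% of the calls in place of 46.3%. This scaling moved the median log2 fold change of all tested genes from -0.03 to -0.24. The median change was 1.42 among the rises and -1.79 among the falls, and 731 rises and 1327 falls exceeded 4-fold in the fit. A gene called not DE here may still have changed, since the test asks for more than 1.5-fold. Of the falls, 388 ended at 3 counts or fewer in both 3 h libraries, so that their size is only bounded, and 117 of these stayed at that floor in all 10 LPS libraries. Among genes with a mean log2 CPM of 5 or more over the 4 libraries, where no fall reached the floor, 1550 rose and 741 fell.

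Nfkbiz (Entrez 80859, chromosome 16 of GRCm38.p6 from 55811375 to 55838954), which encodes an atypical IkB protein that partners with NF-kB in the nucleus, was the largest rise among these more abundant genes. It stood at 1.20 and 1.01 RPKM in naive replicates 1 and 2 and at 545 and 468 RPKM in 3 h replicates 1 and 2 (log2 fold change 8.83, SE 0.16, adjusted p = 1.1e-12 from glmTreat). Il2ra, the alpha chain of the IL-2 receptor, went from 0.894 and 0.832 RPKM to 159 and 141 RPKM (7.44, SE 0.14, adjusted p = 1.1e-12). Myc, the growth-promoting transcription factor, had 31.1 and 28.9 RPKM in naive cells and 835 and 706 RPKM at 3 h (4.68, SE 0.13, adjusted p = 1.1e-10). In these genes both 3 h libraries lay far above both naive libraries, with replicate 1 the higher at 3 h. Hhex, a homeobox transcription factor of B lineage cells, headed the falls of these more abundant genes, from 106 and 115 RPKM to 4.28 and 2.97 RPKM (-4.96, SE 0.19, adjusted p = 5.3e-10). Its groups did not overlap, nor did those of any of the 3100 falls. With 2 libraries a group, a call beyond 1.5-fold makes overlap unlikely, so the latter follows largely from the call.

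**Figure D2:**
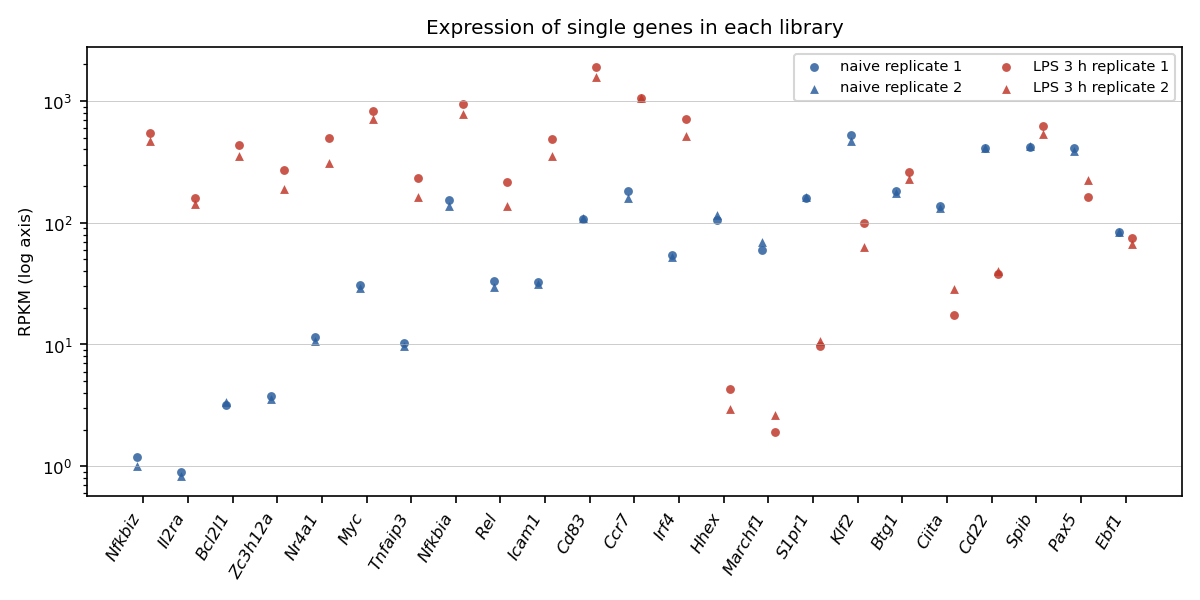
RPKM on a log axis of 23 genes in the 4 libraries (circles, replicate 1; triangles, replicate 2; blue, naive; red, LPS 3 h). Replicates lie close together beside the distance between groups for Nfkbiz, Il2ra and Hhex, whereas the groups of Ebf1, at 83.2 and 84.0 and 75.1 and 67.0 RPKM, lie side by side.

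Next to these, Bcl2l1 rose from 3.21 and 3.37 RPKM to 435 and 356 RPKM, Zc3h12a from 3.78 and 3.54 RPKM to 271 and 190.2 RPKM, and Ankrd33b, a gene with ankyrin repeats, from 0.697 and 0.654 RPKM to 31.3 and 21.6 RPKM. Others among the 15 largest rises were Nr4a1, Pim1, the transferrin receptor gene Tfrc (2.57 and 3.09 and then 93.7 and 76.3 RPKM), Gadd45b, Mreg, Bcl2a1d, Traf1, Bcl2a1b and Marcksl1 (83.0 and 84.9 and then 1833 and 1541 RPKM). Their log2 fold changes ran from 4.33 for Marcksl1 to 8.83 for Nfkbiz. The falls that followed Hhex were those of Marchf1 (-4.81), Serpinb1a (-4.36), Rnase6 (-4.27), Cd38 (-4.08), Trim34a (-4.03), the sphingosine phosphate receptor gene S1pr1 (-3.97), Zfp831 (-3.95), Acp5 (-3.88) and Lbh (-3.85). Serpinb1a encodes an inhibitor of serine proteases and went from 159.9 and 173 RPKM to 7.32 and 8.78 RPKM. The remaining falls of this set were Sh2d3c, Cpt1a, AI467606, Sla and Scml4, from -3.68 to -3.61. Sla encodes an adaptor that restrains antigen receptor signalling, and Cpt1a the enzyme that admits long-chain fatty acids to mitochondria (62.8 and 55.5 and then 5.99 and 3.70 RPKM).

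**Figure D3:**
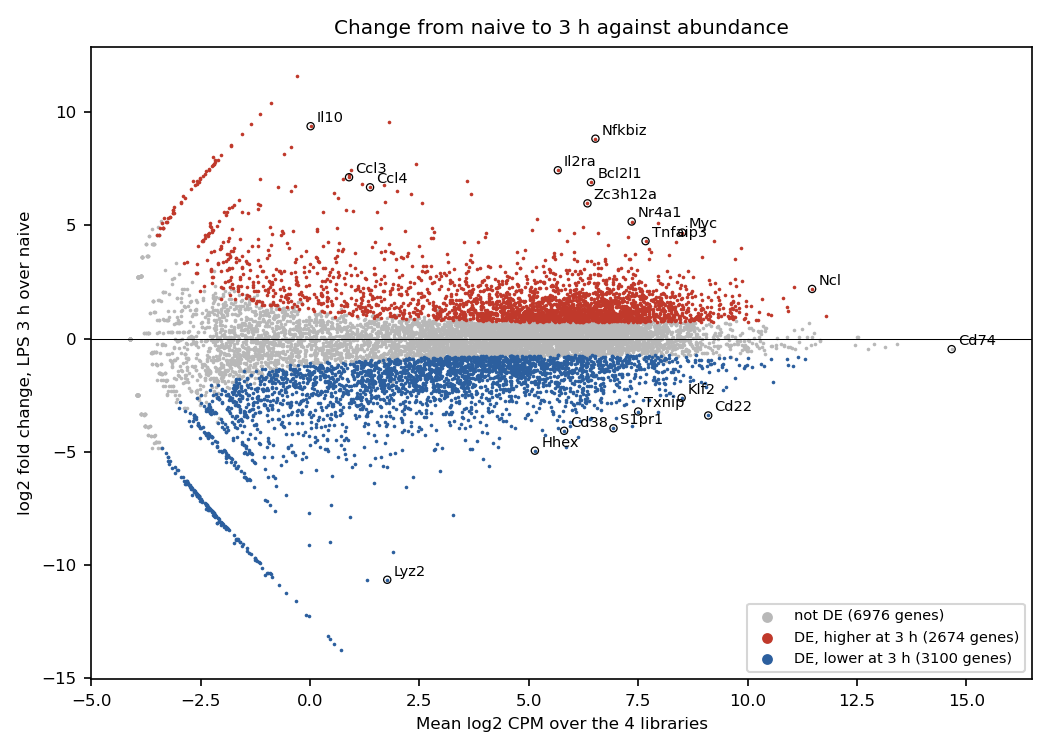
Log2 fold change of each of the 12750 tested genes against its mean log2 CPM over the 4 libraries, in red for the 2674 DE rises, in blue for the 3100 DE falls and in grey for the rest, with selected genes named. The diagonal lines of points at low abundance are genes with few or no counts in a group, whose fitted change depends on the prior count.

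NF-kB is held in the cytoplasm by IkB proteins until they are degraded, and its subunits and inhibitors are themselves among its targets. Of 23 tested genes of subunits, inhibitors and their regulators, 15 rose and 1 fell, with a median log2 fold change of 1.62 against -0.03 for all genes. Among the subunits, Rel went from 33.3 and 29.5 RPKM to 215 and 137 RPKM (2.48, SE 0.20, adjusted p = 1.9e-06), Nfkb1 from 92.0 and 96.1 RPKM to 552 and 536 RPKM and Nfkb2 from 111 and 112 RPKM to 450.2 and 391 RPKM. Relb and Rela rose by 1.65 and 1.29. For the inhibitors, Nfkbia stood at 153 and 136 RPKM and then 940.1 and 784 RPKM (2.58, SE 0.13, adjusted p = 8.0e-09), Nfkbid at 29.1 and 31.1 and then 530.4 and 315, and Nfkbib, Nfkbie and Bcl3 rose by 2.03, 1.62 and 1.44. Tnfaip3, a ubiquitin-editing brake on the pathway, went from 10.3 and 9.75 RPKM to 235 and 162 RPKM (4.30, SE 0.21, adjusted p = 1.5e-08), and the adaptor gene Traf1 from 8.60 and 7.85 RPKM to 202 and 212 RPKM. The list fell at Map3k14, the NF-kB inducing kinase of the alternative pathway (23.6 and 23.9 and then 13.3 and 8.85 RPKM, -1.11, SE 0.17, adjusted p = 0.0028). The kinase genes Chuk and Ikbkb, at 0.15 and -0.35, were not DE.

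NF-kB binds a motif of 10 bases, and its consensus was searched on both strands in the 250 bases before each start site of the RefSeq promoters of GRCm38.p6. Of the tested genes, 9919 of 12750 were matched to at least 1 of these promoters, 12567 promoters in all. The motif was in 3.90% of all 32851 promoters, in 5.97% of the 2578 promoters of genes that rose, in 4.24% of 3137 of genes that fell and in 4.31% of 6852 of genes not DE. For rises of more than 16-fold it was in 21 of 152 promoters (13.8%), and for the NF-kB list above in 12 of 24 (50.0%), where several promoters belong to the same gene. These shares describe letters and were not tested. Promoters of 5 genes named above are shown because they hold the motif and their genes rose, 250 bases each, 5′ to 3′ on the strand of the gene, lower case with the motif in capitals. In Il2ra, Rel and the first stretch of Nfkb2 the capitals cover overlapping matches, and Nfkb2 and Tnfaip3 have further start sites that are not shown.
Nfkbia: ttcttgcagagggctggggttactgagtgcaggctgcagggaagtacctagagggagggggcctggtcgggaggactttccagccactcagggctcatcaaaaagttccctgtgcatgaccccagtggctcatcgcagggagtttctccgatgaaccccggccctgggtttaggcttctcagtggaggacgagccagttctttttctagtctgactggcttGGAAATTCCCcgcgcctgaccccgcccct
Nfkb2: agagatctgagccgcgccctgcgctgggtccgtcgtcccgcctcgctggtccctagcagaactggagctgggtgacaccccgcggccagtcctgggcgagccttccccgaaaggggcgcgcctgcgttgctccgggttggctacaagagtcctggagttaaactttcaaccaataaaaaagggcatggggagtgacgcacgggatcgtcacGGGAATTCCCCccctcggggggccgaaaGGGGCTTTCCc
Tnfaip3: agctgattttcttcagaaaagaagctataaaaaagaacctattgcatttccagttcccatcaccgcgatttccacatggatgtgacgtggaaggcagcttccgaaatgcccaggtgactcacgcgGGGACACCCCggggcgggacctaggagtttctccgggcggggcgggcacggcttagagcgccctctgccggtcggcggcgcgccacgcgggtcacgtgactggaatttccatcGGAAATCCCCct
Rel: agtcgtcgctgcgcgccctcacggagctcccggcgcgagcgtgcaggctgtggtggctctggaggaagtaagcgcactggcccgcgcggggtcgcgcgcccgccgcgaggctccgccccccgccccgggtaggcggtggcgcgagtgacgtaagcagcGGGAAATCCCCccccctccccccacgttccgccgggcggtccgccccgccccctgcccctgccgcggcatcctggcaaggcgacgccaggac
Il2ra: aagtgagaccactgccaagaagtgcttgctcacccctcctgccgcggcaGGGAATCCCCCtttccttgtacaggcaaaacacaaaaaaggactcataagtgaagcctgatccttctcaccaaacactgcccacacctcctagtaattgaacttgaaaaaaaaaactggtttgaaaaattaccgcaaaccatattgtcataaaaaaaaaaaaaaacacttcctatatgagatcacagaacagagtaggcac
The window of Nfkbia is chr12:55492648-55492897 on the minus strand, with a match that begins 29 bases before the start. That of Nfkb2 is chr19:46304487-46304736 on the plus strand, and its 2 stretches begin 39 and 11 bases before the start. Tnfaip3 has chr10:19015411-19015660 on the minus strand, with stretches from 125 and 12 bases before the start, and Rel has chr11:23770970-23771219 on the minus strand, with 1 stretch from 92 bases before it. Il2ra has chr2:11642542-11642791 on the plus strand, with a stretch that begins 201 bases before the start.

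Immediate early genes encode transcription factors that a stimulus switches on within minutes to hours. Of 30 tested, 18 rose and 1 fell, with a median of 2.29. The orphan nuclear receptor genes rose most, Nr4a1 from 11.5 and 10.8 RPKM to 495 and 308 RPKM (5.17, SE 0.32, adjusted p = 3.6e-07) and Nr4a3 from 0.658 and 0.844 RPKM to 80.5 and 44.4 RPKM, and Nr4a2 went from no counts in either naive library to 1.82 and 1.18 RPKM, at least 48.9-fold higher with 3 counts per naive library as its limit. Of the AP-1 family, Jun stood at 10.1 and 10.2 RPKM in naive cells and 94.8 and 81.8 RPKM at 3 h, Junb at 79.5 and 73.4 and then 462 and 395, and Batf at 18.9 and 18.9 and then 132 and 152. Maff and the circadian repressor gene Bhlhe40 rose by 4.44 and 3.52. Fos, Egr1 and Egr3, known from the first minutes of a response, were not DE at 3 h. Fos had 3.25 and 3.33 RPKM in naive cells and 2.72 and 2.43 RPKM at 3 h (-0.36, SE 0.52), Egr1 24.3 and 29.6 and then 37.9 and 27.1 (0.27, SE 0.70), and Egr3 71.4 and 79.2 and then 56.9 and 44.7 (-0.57, SE 0.22), with groups that overlapped for Egr1 but not for Fos or Egr3. Klf6 was the list's fall, from 23.3 and 25.7 RPKM to 7.30 and 7.06 RPKM (-1.77, SE 0.11, adjusted p = 1.1e-07).

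Dual-specificity phosphatases and Sprouty proteins turn MAP kinase signals off again, and 10 of 22 tested genes of this feedback rose and 4 fell (median 0.78). Dusp5 stood at 6.96 and 6.48 RPKM and then 115 and 89.2 RPKM (3.92, SE 0.26, adjusted p = 1.9e-07), Dusp4 at 13.7 and 17.2 and then 119 and 95.7, and Dusp2 at 111 and 107 and then 369 and 269.8. Dusp14 and Dusp8, with at most 2 counts in a naive library, were at least 72.3-fold and 57.5-fold higher. Dusp6, which acts on ERK, fell from 22.8 and 27.4 RPKM to 1.79 and 1.08 RPKM (-4.18, SE 0.25, adjusted p = 5.4e-08), and Rasal3 and Dusp7 fell too (-1.20 and -1.15). Map3k8, a kinase that carries the Toll-like receptor signal to ERK, rose from 2.07 and 1.81 RPKM to 19.7 and 13.4 RPKM.

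Genes for proteins that destroy or silence inflammatory mRNA split within families. Of 14 tested, 6 rose (42.9%, against 21.0% of all genes) and 2 fell (14.3%, against 24.3%). Zc3h12a, the ribonuclease Regnase-1, rose as above (5.98, SE 0.16, adjusted p = 9.3e-11), with its relative Zc3h12c at 0.472 and 0.449 and then 3.79 and 3.15 RPKM, whereas Zc3h12d fell from 26.5 and 24.6 RPKM to 5.75 and 6.28 RPKM. Of the AU-rich element binding proteins, Zfp36l1 rose from 139 and 141 RPKM to 572 and 451 RPKM and Zfp36l2 fell from 102 and 89.8 RPKM to 30.6 and 28.0 RPKM, and Zfp36 was not DE (-0.36, SE 0.21). Rc3h1, which encodes Roquin-1, rose by 1.95.

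Of 29 tested genes of LPS and Toll-like receptor sensing, 5 rose (17.2%, against 21.0% of all genes) and 8 fell (27.6%, against 24.3%), with a median of -0.24. Tlr4 itself went from 6.96 and 6.74 RPKM to 0.0290 and 0.205 RPKM (-5.64, SE 0.35, adjusted p = 4.2e-08), Tlr2 from 7.99 and 7.01 RPKM to 1.37 and 1.74 RPKM, and Cd14 had no counts at 3 h (at least 4.37-fold lower, with 3 counts per 3 h library as the limit). Without 3 h replicate 2 the fall of Tlr4 was -7.87. These genes are also expressed by myeloid cells, whose markers fell in the same libraries (16 of 17, with a summed 307 and 146 CPM in naive cells). Ly96, which encodes MD-2, was not DE (5.34 and 3.79 and then 2.13 and 2.67 RPKM, -0.92, SE 0.25), but was called without naive replicate 2 (-1.13). Cd180, expressed mainly by B cells, fell from 255 and 259 RPKM to 69.7 and 81.6 RPKM (-1.76, SE 0.094, adjusted p = 4.2e-08), with its partner Ly86, which encodes MD-1, at -0.92, also a fall. The adaptor genes Ticam2 and Myd88 rose, from 4.32 and 3.69 RPKM to 17.8 and 17.3 RPKM and from 24.5 and 23.02 RPKM to 53.8 and 47.3 RPKM, and the transcription factor gene Irf5 from 135 and 125 RPKM to 344 and 293 RPKM, as did the ubiquitin ligase gene Traf6 and the kinase gene Map3k7 (0.96 and 0.86). Unc93b1, which escorts endosomal receptors, fell by 1.22 on the log2 scale, and Sigirr, an inhibitor of the pathway, fell by 2.06.

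Genes of antigen receptor signalling fell more often than they rose. Of 44 tested, 3 rose and 24 fell, with a median of -0.90. Among receptor and coreceptor chains, Cd79a fell from 2533 and 2351 RPKM to 1031 and 1054 RPKM (-1.23, SE 0.095, adjusted p = 7.0e-06) and Cd79b was not DE (-0.47, SE 0.11). Cd22, an inhibitory coreceptor, had the list's largest fall, from 413 and 414 RPKM to 38.2 and 40.1 RPKM (-3.40, SE 0.14, adjusted p = 8.5e-10), and the inhibitory genes Siglecg, Pecam1 and Fcgr2b fell too (-2.25, -1.87 and -1.22). The kinase genes Syk (262 and 274 and then 222 and 240.3 RPKM), Lyn (-0.70) and Blk (-0.23) and the phospholipase gene Plcg2 (-0.30) were not DE, although Lyn was called without 3 h replicate 1 (-0.91). Adaptors and scaffolds further along fell, with Bank1 from 333 and 354 RPKM to 73.4 and 80.8 RPKM, Dok3 from 166 and 160.4 RPKM to 25.5 and 26.7 RPKM and Dapp1 from 25.6 and 27.6 RPKM to 5.65 and 4.74 RPKM, as did the Ras activator gene Rasgrp1 (-2.26). The rises were Fyn (17.5 and 15.7 and then 93.9 and 74.7 RPKM), the calcium channel gene Orai1 (27.4 and 24.6 and then 97.1 and 79.1 RPKM) and Grb2 (0.93).

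Of 29 tested cytokine genes, 11 rose and 4 fell, and 13 more did not pass the filter. Their median was 0.59, or 0.56 with genes at the floor set to their bound. Il10, the anti-inflammatory cytokine of B cells, had 0 and 1 counts in naive cells and 222 and 450 at 3 h, at least 132-fold higher, which put it at 9.48 and 11.3 RPKM. Tnf stood at 1.57 and 1.63 RPKM and then 29.4 and 31.3 RPKM (4.25, SE 0.19, adjusted p = 1.6e-09). Il6 remained low, at 0.564 and 1.36 RPKM at 3 h, at least 10.2-fold above naive cells. Il1b rose from 1.20 and 0.555 RPKM to 4.58 and 5.96 RPKM and Vegfa from 0.0283 and 0.0372 RPKM to 2.56 and 7.12 RPKM, in which 3 h replicate 2 lay above replicate 1. Without naive replicate 1 the rise of Il1b was 3.25 (2.55 with all libraries), and without 3 h replicate 2 that of Vegfa was 6.25 (7.22) and the fall of Tgfb3 -3.94 (-3.13). Ebi3, a subunit of IL-27 and IL-35, and Tgfb1 were abundant before LPS and rose by 1.37 and 0.91. Lta (0.59, SE 0.13) and Ltb (-0.26, SE 0.21), which shape lymphoid tissue, were not DE. The falls were Il16 (139 and 134 and then 66.5 and 76.4 RPKM), Flt3l (-2.19), Tgfb3 and Il18, and the last lost its call without any 1 of the 4 libraries (adjusted p from 0.056 to 0.17 in glmTreat).

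All 8 chemokine genes that passed the filter were DE, 5 upwards and 3 downwards, and 16 more did not pass it. Over all tested genes 45.3% were DE. A scarce gene can pass the filter through the group where it is high, so this count may be partly set by the filter. Ccl3, for instance, had 6 and 2 counts in naive cells and 353 and 572 at 3 h. This limit holds for the cytokine genes above as well. Ccl3 went from 0.224 and 0.0982 RPKM to 24.9 and 23.8 RPKM (7.13, SE 0.46, adjusted p = 4.5e-08) and Ccl4 from 0.448 and 0.235 RPKM to 35.3 and 38.6 RPKM (6.69, SE 0.37, adjusted p = 9.5e-09), and Cxcl10 from 0.188 and 0.211 RPKM to 9.27 and 11.3 RPKM, Ccl22 from 0.261 and 0.321 RPKM to 4.00 and 3.86 RPKM and Cxcl16 from 0.217 and 0.174 RPKM to 1.57 and 1.21 RPKM. The 3 falls, Ccl5, Ccl6 and Ccl9, are chemokines that T cells, natural killer cells or myeloid cells make. Ccl6 had 4.36 and 2.29 RPKM in naive replicates 1 and 2 and no counts at 3 h. The part of such cells in these falls was not tested. Without naive replicate 1 the rise of Ccl3 was 7.89, and without 3 h replicate 1 or 2 the fall of Ccl5 was -10.07 or -4.08 (-5.43 with all libraries).

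More genes of lymphocyte homing fell than rose. Of 26 tested homing genes, 5 rose (19.2%, against 21.0% of all genes) and 14 fell (53.8%, against 24.3%). Their median was -1.24, or -1.09 with genes at the floor set to their bound. Ccr7 stood at 182 and 159 RPKM and then 1056 and 1067 RPKM (2.63, SE 0.16, adjusted p = 8.1e-08), Cxcr5 at 458 and 439 and then 1213 and 1164 (1.41, SE 0.089, adjusted p = 4.4e-07), and Gpr183 at 60.4 and 59.1 and then 166 and 156. Ccr7 draws cells to the T cell zone, Cxcr5 to the follicle and Gpr183 to its outer edge. S1pr1, needed to exit lymphoid organs, fell from 158 and 161 RPKM to 9.77 and 10.7 RPKM (-3.97, SE 0.22, adjusted p = 4.7e-08), and S1pr4 from 122 and 119.5 RPKM to 9.34 and 11.2 RPKM. Among integrins, Itgb1 rose by 1.52, and Itgb7, Itga4 and Itga6 fell (-2.95, -1.32 and -1.48). Cxcr4 was not DE, at 69.5 and 36.0 and then 75.4 and 50.4 RPKM, and its groups overlapped. Ccr1, Ccr2 and Cxcr2, receptors of myeloid cells, fell to at most 0.0928 RPKM.

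Of 32 tested cytokine receptor genes, 8 rose (25%) and 9 fell (28.1%), shares near the 21.0% and 24.3% of all genes, with a median of -0.12. Beside Il2ra, the decoy receptor gene Il1r2 rose from 0.396 and 0.375 RPKM to 33.8 and 30.6 RPKM (6.37, SE 0.27, adjusted p = 9.4e-10), Il21r from 152 and 149.6 RPKM to 505 and 373 RPKM, and Il15ra and Tgfbr1 by 1.90 and 1.51. Il2rb, the beta chain of the IL-2 receptor, fell from 1.71 and 2.03 RPKM to 0.207 and 0.292 RPKM. The IL-10 receptor genes Il10ra and Il10rb fell (-1.06 and -0.94), as did Il27ra, Il5ra and Il6ra (-1.79, -1.16 and -1.10). Il4ra was not DE, at 116 and 121 and then 133 and 103 RPKM, with overlapping groups.

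Of 21 JAK, STAT and SOCS genes, 9 rose and 4 fell. The rises included Stat4 (30.5 and 28.7 and then 125 and 103 RPKM), Stat3, Stat5a and Stat6 (1.51, 1.53 and 1.47) and the feedback inhibitor genes Socs3 (1.54) and Cish (3.37). Stat2 fell from 25.7 and 27.3 RPKM to 3.45 and 4.11 RPKM (-2.80, SE 0.20, adjusted p = 3.1e-07), together with Jak3 (-1.84). Socs1 was not DE (-0.08, SE 0.23).

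Several surface genes known from activated B cells rose. Of 34 tested genes of costimulation and the TNF receptor family, 15 rose (44.1%, against 21.0% of all genes) and 9 fell (26.5%, against 24.3%). Their median was 0.38, or 0.46 with genes at the floor set to their bound. Cd83, which stabilizes class II molecules at the surface, went from 106 and 109.8 RPKM to 1885 and 1579 RPKM (4.00, SE 0.16, adjusted p = 1.4e-09), and Cd86, a ligand of CD28 on T cells, from 13.4 and 13.7 RPKM to 117 and 116 RPKM (3.11, SE 0.15, adjusted p = 6.0e-09). Cd44 and Icam1, which bind hyaluronan and the integrin LFA-1, stood at 9.64 and 9.68 and 32.8 and 31.5 RPKM and then at 166 and 137 and 483 and 354 RPKM. Cd40 rose from 44.0 and 46.9 RPKM to 183 and 185 RPKM, Tnfrsf1b from 11.1 and 9.82 RPKM to 57.9 and 59.4 RPKM, Fas from 2.25 and 2.45 RPKM to 17.1 and 12.1 RPKM, and Tnfrsf13c, the receptor of the survival factor BAFF, by 0.96. Cd80 remained below 2 RPKM although it rose by 3.16. Cd69, which went from 35.2 and 32.5 RPKM to 269 and 263 RPKM, marked the cells sorted at 3 h and is no finding. Falls were those of Cd38 (79.0 and 74.3 and then 4.91 and 4.21 RPKM, -4.08, SE 0.17, adjusted p = 8.5e-10), Tnfrsf13b, which encodes TACI (-1.38, SE 0.11, adjusted p = 5.3e-06), Cd200, Cd48 and Cd27 (-1.39, -1.27 and -2.94).

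H2-Aa, H2-Ab1, H2-Eb1 and Cd74, which form class II molecules and their invariant chain, were among the most abundant genes in both groups and were not DE, whereas their regulators fell. Of 21 tested genes of class II presentation, 1 rose and 8 fell (median -0.66). H2-Aa had 7786 and 7794 RPKM in naive cells and 6308 and 6791 RPKM at 3 h (-0.25, SE 0.13), and Cd74 22252 and 21011 and then 17017 and 14222 RPKM (-0.47, SE 0.11). Class II genes resemble each other, so reads could be split among them. Ciita, their activator, fell from 138 and 133 RPKM to 17.5 and 28.5 RPKM (-2.55, SE 0.23, adjusted p = 6.5e-06). Marchf1, a ubiquitin ligase that removes class II molecules and CD86 from the surface, fell from 60.3 and 68.8 RPKM to 1.90 and 2.64 RPKM (-4.81, SE 0.23, adjusted p = 1.1e-08). The peptide exchange genes H2-DMa, H2-DMb2 and H2-Oa fell (log2 fold changes -1.68, -1.22 and -1.99), and Ifi30, a thiol reductase of the lysosome, rose by 0.87, a call that was lost without 3 h replicate 2 (0.76, adjusted p = 0.063 in glmTreat).

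Transcription factors of B cell identity changed in part. Of 35 tested, 7 rose (20%, against 21.0% of all genes) and 13 fell (37.1%, against 24.3%), with a median of -0.19. Ebf1 (-0.23, SE 0.10), Tcf3 (-0.35, SE 0.078), Spib (0.45, SE 0.12) and Spi1 (-0.18, SE 0.099) were not DE, nor was Bach2 (37.9 and 36.8 and then 40.7 and 25.8 RPKM, -0.17, SE 0.18). Pax5, which holds B cells to their lineage, fell from 408 and 385 RPKM to 164 and 225 RPKM (-1.03, SE 0.16, adjusted p = 0.0059). Larger falls were those of Ets1 (307 and 294 and then 70.4 and 54.7 RPKM, -2.27, SE 0.14, adjusted p = 9.2e-08), Lyl1 (-2.83), Id3 (131 and 146 and then 39.9 and 29.7 RPKM) and Mef2c (-1.82), and Ikzf1 and Ikzf3 fell (log2 fold changes -1.08 and -1.27). Id2, an inhibitor of E proteins like Id3, rose from 3.07 and 2.83 RPKM to 29.3 and 35.6 RPKM (3.46, SE 0.19, adjusted p = 1.2e-08), and Myb and Irf8 rose by 2.53 and 1.30. Without 3 h replicate 1 Pax5 lost its call (-0.81, adjusted p = 0.068 in glmTreat). Of 12 tested factors of plasma cells, 4 rose (33.3%, against 21.0% of all genes) and 3 fell (25%, against 24.3%). Irf4 stood at 54.1 and 52.3 RPKM and then 709 and 519 RPKM (3.53, SE 0.18, adjusted p = 2.1e-08), and Prdm1 rose from a low level, from 0.603 and 0.475 RPKM to 1.40 and 1.66 RPKM (1.502, SE 0.31, adjusted p = 0.0059), and lost its call without either 3 h library (adjusted p = 0.051 and 0.14). Zbtb32 rose by 2.19, and Zbtb38 and Mxd1 fell (-3.20 and -1.01). Without 3 h replicate 2, Zbtb32 was at 1.23 and Mxd1 at -0.79, both no longer called (adjusted p = 0.14 and 0.099 in glmTreat). Xbp1 was not DE (68.3 and 71.9 and then 28.6 and 56.3 RPKM, -0.71, SE 0.28), but was a called fall without 3 h replicate 2 (-1.32, adjusted p = 0.018).

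Of 19 genes of marginal zone and follicular B cells, 1 rose and 9 fell. Cd9 rose from 7.06 and 6.25 RPKM to 42.1 and 61.4 RPKM (2.96, SE 0.27, adjusted p = 5.5e-06). Cr2, a complement receptor that is highest on marginal zone cells, and Cd1d1 fell (log2 fold changes -1.01 and -2.58), and so did Hes1, a target of NOTCH (37.99 and 33.1 and then 4.23 and 5.61 RPKM). Fcer2a, a follicular marker, was not DE (761 and 819 and then 774 and 873 RPKM). Of the heavy chain genes used in the naive sort, Ighd was at -1.16, a fall that was not called without either 3 h library (adjusted p = 0.12 and 0.099 in glmTreat), and Ighm was not DE (-0.45, SE 0.13). Of 7 tested plasma cell surface markers, Slamf7 rose by 1.499 and 2 fell, the constant region genes Igha (-3.07) and Ighg3 (-1.45). Ighg3 was at -1.14 and -2.11 without 3 h replicate 1 or 2, and not called (adjusted p = 0.24 and 0.081 in glmTreat).

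Quiescence factors fell more often than they rose. Of 30 tested, 16 fell and 1, Klf9, rose (median -0.95). Klf2, which keeps lymphocytes at rest and sustains S1pr1, went from 525 and 471 RPKM to 98.6 and 63.5 RPKM (-2.62, SE 0.23, adjusted p = 5.0e-06), Txnip, a brake on glucose uptake, from 196 and 202 RPKM to 18.2 and 24.1 RPKM (-3.23, SE 0.14, adjusted p = 2.0e-09), and Pik3ip1, an inhibitor of PI3K, from 15.6 and 16.7 RPKM to 3.11 and 2.40 RPKM. Foxo1, Foxo3, Sesn1 and Sesn3 fell (log2 fold changes -0.95, -1.69, -1.88 and -1.70). Btg1 and Btg2 were not DE (0.45, SE 0.13 and -0.45, SE 0.14). Inhibitors of cell cycle kinases went both ways. Cdkn1b, which encodes p27, fell from 26.3 and 26.9 RPKM to 11.9 and 7.33 RPKM (-1.48, SE 0.17, adjusted p = 5.8e-05) and Cdkn2d from 32.8 and 36.2 RPKM to 3.597 and 2.76 RPKM. Cdkn1a rose from 0.554 and 0.632 RPKM to 3.74 and 3.598 RPKM (2.63, SE 0.36). The pocket protein gene Rbl2 fell by 1.98. Of 25 genes of G1, 8 rose (32%, against 21.0% of all genes) and 7 fell (28%, against 24.3%). Ccnd2 rose from 24.8 and 24.6 RPKM to 321 and 274 RPKM (3.59, SE 0.12, adjusted p = 2.8e-10) and Cdk6 from 2.92 and 2.21 RPKM to 17.0 and 12.8 RPKM. Ccnd3 was not DE (-0.69, SE 0.14) but was called without 3 h replicate 2 (-0.94), and Ccne1 fell by 2.55. None of 22 mitosis genes rose in edgeR, also at an unadjusted p of 0.05 or in DESeq2, and 7 fell (median -0.81), such as Aurkb (-2.19) and Mki67 (6.13 and 6.88 and then 3.19 and 2.73 RPKM).

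Single members of the BCL2 family moved in both directions. Of 30 survival and death genes, 15 rose (50%, against 21.0% of all genes) and 7 fell (23.3%, against 24.3%), with a median of 1.10. Bcl2l1, which encodes BCL-XL, had the largest rise of the list (6.91, SE 0.21, adjusted p = 2.4e-10), and Bcl2 fell from 21.2 and 17.8 RPKM to 2.93 and 4.35 RPKM (-2.41, SE 0.17, adjusted p = 2.2e-07). Bcl2a1b, Bcl2a1d and Bcl2a1a rose by 4.50, 4.65 and 4.46, although these near-identical genes may share reads. Mcl1 was abundant and not DE (314 and 299.9 and then 433 and 348 RPKM, 0.35, SE 0.11). The kinase gene Pim1 stood at 25.3 and 23.9 RPKM and then 1140.0 and 577 RPKM (5.12, SE 0.36, adjusted p = 8.7e-07), with 3 h replicate 1 well above replicate 2, and Pim3 and Gadd45b rose by 2.83 and 4.79. Death-promoting members also rose, Bcl2l11, which encodes BIM, from 13.9 and 14.4 RPKM to 63.9 and 61 RPKM, and Bbc3, which encodes PUMA, from 2.33 and 1.53 RPKM to 16.1 and 21.9 RPKM, whereas the caspase genes Casp9 and Casp8 fell (-2.71 and -1.26).

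Interferon-stimulated genes fell more often than they rose. Of 37 tested, 2 rose and 20 fell, with a median of -1.93, the lowest of the lists apart from markers of other cells. Cmpk2 went from 14.4 and 12.4 RPKM to 0.210 and 0.587 RPKM (-4.95, SE 0.45, adjusted p = 4.2e-06), Oas3 from 5.03 and 4.33 RPKM to 0.236 and 0.369 RPKM, Oasl2 from 7.20 and 5.08 RPKM to 0.320 and 0.492 RPKM and Ifit3 from 16.6 and 10.4 RPKM to 0.865 and 4.21 RPKM, all of them antiviral genes. The transcription factor gene Irf9 fell by 1.44, Irf1 fell by 1.69, and Irf7 was not DE (-1.37, SE 0.45, adjusted p = 0.061) but was called without naive replicate 2 (-1.54). Over the list, the median log2 ratio of 3 h replicate 2 to replicate 1 was 0.50. Without 3 h replicate 2 the fall of Cmpk2 was -6.02 and that of Ifit3 -3.997, and without 3 h replicate 1 Ifit3 was at -1.69 and no longer called (adjusted p = 0.10 in glmTreat). Isg15, a ubiquitin-like modifier, rose from 8.40 and 8.51 RPKM to 48.3 and 36.6 RPKM (2.32, SE 0.19, adjusted p = 1.2e-06), as did Cxcl10. Trim34a, outside the list, fell from 64.6 and 59.1 RPKM to 3.32 and 4.18 RPKM. Myeloid cells express many of these genes too, and their markers fell in the same libraries. In naive replicates 1 and 2 the interferon list summed to 2700 and 2720 CPM and the myeloid markers to 307 and 146 CPM. At 3 h the sums were 733 and 958 CPM and 5.86 and 8.38 CPM. The part of myeloid cells in these falls was not tested.

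An interferon element, a pair of TTTC repeats with 2 free bases between them, searched on either strand, was in 16 of 37 promoters of the interferon list (43.2%) and in 2.98% of all promoters of the table, 2.29% of those of genes that rose and 3.95% of those of genes that fell. Promoters of Isg15, which rose, and Ifit3, which fell, are shown because both hold the element, with its letters in capitals.
Isg15: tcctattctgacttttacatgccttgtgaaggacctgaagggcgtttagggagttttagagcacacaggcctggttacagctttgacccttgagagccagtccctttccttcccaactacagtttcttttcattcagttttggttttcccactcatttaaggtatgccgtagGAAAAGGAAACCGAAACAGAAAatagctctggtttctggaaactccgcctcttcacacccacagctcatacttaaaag
Ifit3: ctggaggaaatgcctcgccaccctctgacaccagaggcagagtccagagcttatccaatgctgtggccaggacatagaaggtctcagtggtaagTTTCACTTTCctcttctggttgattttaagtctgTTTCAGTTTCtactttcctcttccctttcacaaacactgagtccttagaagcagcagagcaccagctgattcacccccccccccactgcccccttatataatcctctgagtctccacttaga
The Isg15 window is chr4:156200819-156201068 on the minus strand, where overlapping matches begin 78 bases before the start. In Ifit3, chr19:34583279-34583528 on the plus strand, 2 stretches begin 156 and 122 bases before the start.

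Many genes of nucleotide and polyamine synthesis rose. Of 29 genes of nucleotide, one-carbon and polyamine synthesis, 16 rose and 1 fell (median 0.99). Uck2, Srm, Ctps and Odc1 stood at 9.63 and 8.49, 33.7 and 35.9, 9.40 and 9.27 and 43.8 and 35.9 RPKM in naive cells and at 74.6 and 85.4, 262 and 306, 72.5 and 77.3 and 256 and 224 RPKM at 3 h. They act in pyrimidine salvage, spermidine synthesis, CTP synthesis and the first step of polyamine synthesis. Among genes that serve DNA synthesis, Rrm1 and Rrm2 were not DE (-0.31 and -1.02) and Tyms fell by 1.07, a call that was lost without naive replicate 1 or either 3 h library (adjusted p from 0.064 to 0.13 in glmTreat). Rrm2, with an adjusted p of 0.059, was called under 6 alternatives, among them the 4 compared libraries alone (-1.05).

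Many genes of sterol synthesis rose. Of 30 genes of cholesterol and fatty acids, 16 rose and 6 fell (median 1.10). Hmgcs1 went from 12.3 and 12.9 RPKM to 122 and 206 RPKM (3.70, SE 0.21, adjusted p = 6.0e-08), Sqle from 8.45 and 11.1 RPKM to 72.9 and 139 RPKM and Idi1 from 4.11 and 4.65 RPKM to 37.96 and 60.2 RPKM, all enzymes of the pathway. Srebf2, its activator, rose by 1.07. In Hmgcs1, Sqle and Idi1, 3 h replicate 2 lay above replicate 1. Mvk, also an enzyme of this pathway, fell from 9.54 and 9.86 RPKM to 2.22 and 4.53 RPKM, and Mylip, a ubiquitin ligase gene, fell from 72.1 and 69.3 RPKM to 11.7 and 8.21 RPKM (-2.84, SE 0.19, adjusted p = 1.6e-07). The efflux pump gene Abca1 was not DE (-0.84, SE 0.21), but was called without naive replicate 2 or 3 h replicate 1 (-1.05 and -1.13). The fall of Mvk was -2.155 without 3 h replicate 2.

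Of 26 genes of amino acid transport and of the transcription factor ATF4, 14 rose and 3 fell (median 1.37). Slc7a5, the large neutral amino acid transporter, rose from 13.4 and 13.5 RPKM to 149 and 207 RPKM (3.73, SE 0.17, adjusted p = 6.4e-09) and Atf4 from 27.2 and 25.1 RPKM to 209 and 233 RPKM (3.08, SE 0.13, adjusted p = 1.3e-09). Slc3a2, the partner chain of SLC7A5, was not DE (0.43, SE 0.13). Several targets of ATF4 were far higher in 3 h replicate 2 than in replicate 1. Chac1 went from 0.151 and 0.124 RPKM to 0.995 and 11.97 RPKM, Trib3 from 0.288 and 0.624 RPKM to 1.03 and 13.1 RPKM, Slc1a4 from 0.188 and 0.247 RPKM to 0.682 and 7.15 RPKM, Asns from 0.169 and 0.302 RPKM to 1.71 and 4.65 RPKM and Sesn2 from 3.86 and 4.08 RPKM to 5.12 and 20.1 RPKM. Without 3 h replicate 2, Chac1 was at 2.79, Slc1a4 at 1.64, Asns at 2.88, Trib3 at 1.21 (adjusted p = 0.051 in glmTreat) and Sesn2 at 0.34 (adjusted p = 1), and without naive replicate 1 the latter pair also lost its call (0.059 and 0.057). Their values with all libraries were 5.59, 4.25, 3.87, 4.06 and 1.70.

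Of 26 chaperone genes, 21 rose and none fell by glmTreat or DESeq2, also at an unadjusted p of 0.05, with 1 lower in the F-test of edgeR (median 1.20). Hsph1 and Hsp90aa1 stood at 18.8 and 22.8 and 51.6 and 56.4 RPKM and then at 93.2 and 119 and 238 and 204 RPKM. Mitochondrial Hspd1 and Hspa9 rose by 1.97 and 1.86, and subunits of the chaperonin that folds actin and tubulin by 0.84 for Cct2 to 1.88 for Cct6a, with Cct4 not DE (0.64, SE 0.079). Of 40 proteasome genes, 22 rose and 3 fell (median 0.80), and the 3 falls were the subunits of the immunoproteasome, Psmb8 (-1.89), Psmb9 (-2.32) and Psmb10 (-1.003). Of 28 ribosome assembly genes 27 rose (median 2.16), whereas 75 of 78 tested genes of cytosolic ribosomal proteins were not DE (median -0.24, with 37 lower in the F-test of edgeR and 0 in DESeq2) and 70 of 85 respiratory chain genes were not (median -0.04).

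Of 23 glycolysis genes, 6 rose (26.1%) and 5 fell (21.7%), shares near the 21.0% and 24.3% of all genes, with a median of -0.15. Hk2, the inducible hexokinase, rose from 1.37 and 1.17 RPKM to 19.7 and 16.6 RPKM (3.83, SE 0.16, adjusted p = 9.3e-10), the lactate transporter gene Slc16a1 from 3.49 and 3.15 RPKM to 49.6 and 38.3 RPKM and Ldha from 155 and 170.3 RPKM to 393 and 437 RPKM. The glucose transporter gene Slc2a1 was not DE (21.0 and 20.9 and then 24.2 and 16.7 RPKM), and Gpi1 and Aldoc fell (-0.97 and -2.83). Reads of genes with many near-identical pseudogenes, such as Gapdh (-0.15, SE 0.14), are uncertain. Several lysosomal enzymes fell, with 12 of 32 lysosome and autophagy genes down and 4 up (median -0.27). The cathepsin genes Ctsb, Ctsc and Ctsd fell (log2 fold changes -1.55, -1.73 and -1.60). The rises of this list were genes of autophagy, Sqstm1 (181 and 184 and then 660.1 and 522 RPKM), Map1lc3a, Gabarapl1 and Ulk1.

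Of 37 histone and DNA modifiers, 8 rose (21.6%, against 21.0% of all genes) and 4 fell (10.8%, against 24.3%), with a median of 0.31. Kdm6b, a demethylase of H3K27, went from 12.3 and 10.6 RPKM to 261 and 181 RPKM (4.27, SE 0.20, adjusted p = 7.3e-09) and Kdm2b from 18.9 and 18.4 RPKM to 157 and 139 RPKM (2.99, SE 0.086, adjusted p = 1.7e-10). The methyltransferase gene Ezh2 was not DE (0.75, SE 0.14), though called without naive or 3 h replicate 2 (0.87 and 0.85), and the acetyltransferase gene Kat2b fell by 2.42. Crebbp, not DE, was uneven at 3 h, at 21.8 and 3.84 RPKM against 4.21 and 3.36 RPKM in naive cells, and without 3 h replicate 2 it was a called rise (2.495).

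Among gene families taken by name, 28 of 315 zinc finger genes named Zfp rose (8.89%) and 87 fell (27.6%), with a median of -0.27. For 185 solute carriers, 46 rose (24.9%) and 53 fell (28.6%), with a median of -0.17. Over all tested genes 21.0% rose and 24.3% fell. Zfp831 had the largest fall of the zinc finger genes with a mean log2 CPM of 2 or more, from 20.4 and 20.3 RPKM to 1.52 and 1.14 RPKM. Of 36 kinesins and septins, 5 rose and 13 fell (median -0.38, or -0.26 with genes at the floor set to their bound), and Septin9 fell from 23.6 and 21.4 RPKM to 0.719 and 0.462 RPKM (-5.31, SE 0.24, adjusted p = 3.3e-09). Of 8 GIMAP genes, GTPases of lymphocytes, Gimap7 (from 79.8 and 73.8 RPKM to 3.12 and 7.06 RPKM) and Gimap1 (-1.79) fell and the other 6 were not DE. The share of falls, 25%, was near the 24.3% of all genes. The log2 fold change of Gimap7 was -3.85, and -4.65 without 3 h replicate 2.

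Of the 143 genes that rose from 3 counts or fewer in both naive libraries, Il10, Htra4, Dusp14, Rhbdl3 and Dusp8 had the highest bounds, from at least 57.5-fold to at least 132-fold. Htra4, which encodes a secreted protease, had no naive counts and 228 and 311 counts at 3 h. The 5 highest bounds among falls to 3 counts or fewer were those of Lyz2, Hba-a2, Ngp, S100a9 and Ltf, genes of myeloid or red cells, from at least 270.1-fold to at least 799-fold lower. Of the 669 falls with a mean log2 CPM below 0, 379 ended at this floor.

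The size and direction of change varied with abundance. In genes with a mean log2 CPM below 0, 11.7% rose and 27.6% fell, and the median absolute log2 fold change was 1.60. The share that fell was highest between 1 and 2 (43.9% of 736 genes) and declined to 11.8% between 8 and 9. The share that rose increased from 12.5% between 2 and 3 to 39.6% between 9 and 10, and was 16.3% among the 86 genes at 10 and above. The median absolute change was 0.64 between 6 and 7, 0.68, 0.73 and 0.90 in the next 3 bins and 0.41 at 10 and above. Below a mean log2 CPM of 2 the median log2 fold change was -0.65 over 3792 genes (-0.59 between the replicate 1 libraries and -0.47 between those of replicate 2), and at 8 and above it was 0.29 over 711 genes (0.36 and 0.22). The values in parentheses are differences of log2 CPM with a prior count of 2, which draws scarce genes toward no change. The others come from the fit, so the 2 kinds are not the same measure. With genes binned by log2 RPKM, which divides by length, the 219 genes at 8 and above had a median of -0.23, a reversal, and 2.04% of the 49 at 10 and above rose. The noise between replicates was largest for the scarcest genes, with a median absolute log2 ratio of 0.45 in naive cells and 0.51 at 3 h below a mean log2 CPM of 0, against 0.07 and 0.19 between 6 and 7.

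**Figure D4:**
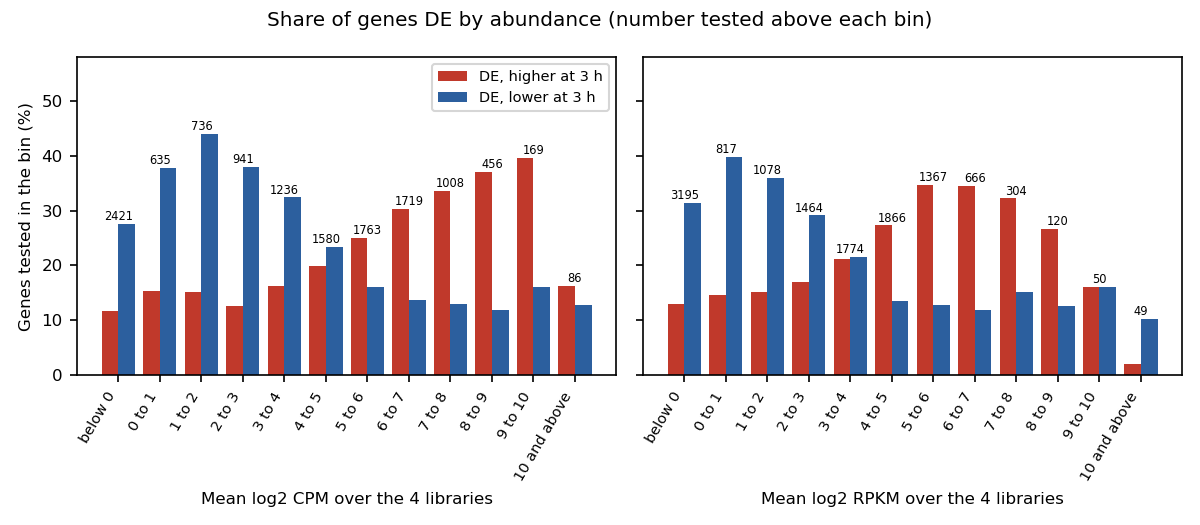
Share of tested genes that were DE, higher at 3 h in red and lower in blue, in bins of mean log2 CPM (left) and of mean log2 RPKM (right), with the number of genes tested above each pair of bars. On the left, rises overtake falls above a log2 CPM of 5 (25.0% against 16.1% between 5 and 6), and on the right the rises shrink again in the top bins.

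Cd74, Eef1a1, Eef2 and H2-Aa encode the invariant chain, a pair of elongation factors and a class II chain. They were the 4 most abundant of the tested genes by count in both groups, and none was DE. Mitochondrial genes were not in this ranking. At 3 h Ncl, which encodes nucleolin, had come to the fifth place, from 159 and 164 RPKM to 752 and 722 RPKM (2.19, SE 0.10, adjusted p = 5.5e-09). Genes that rose held 17.2% and 17.3% of the counts of kept genes in naive cells and 41.9% in each 3 h library, while genes that fell went from 23% in both naive libraries to 6.84% and 7.45%. The number of genes that held 50% of these counts was 624 and 616 in naive cells and 614 and 649 at 3 h. By genomic span, 11.9% of 444 genes of 200 kb and over rose and 30.9% fell, against 23.8% and 23.7% of 3432 genes of 20 to 50 kb, and these long genes were also less abundant (mean log2 CPM with a median of 2.78 against 4.72). Rises over 16-fold had a median span of 14.6 kb, and genes not DE 20.6 kb. Of 462 long non-coding RNA genes, 9.52% rose and 35.7% fell.

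**Figure D5:**
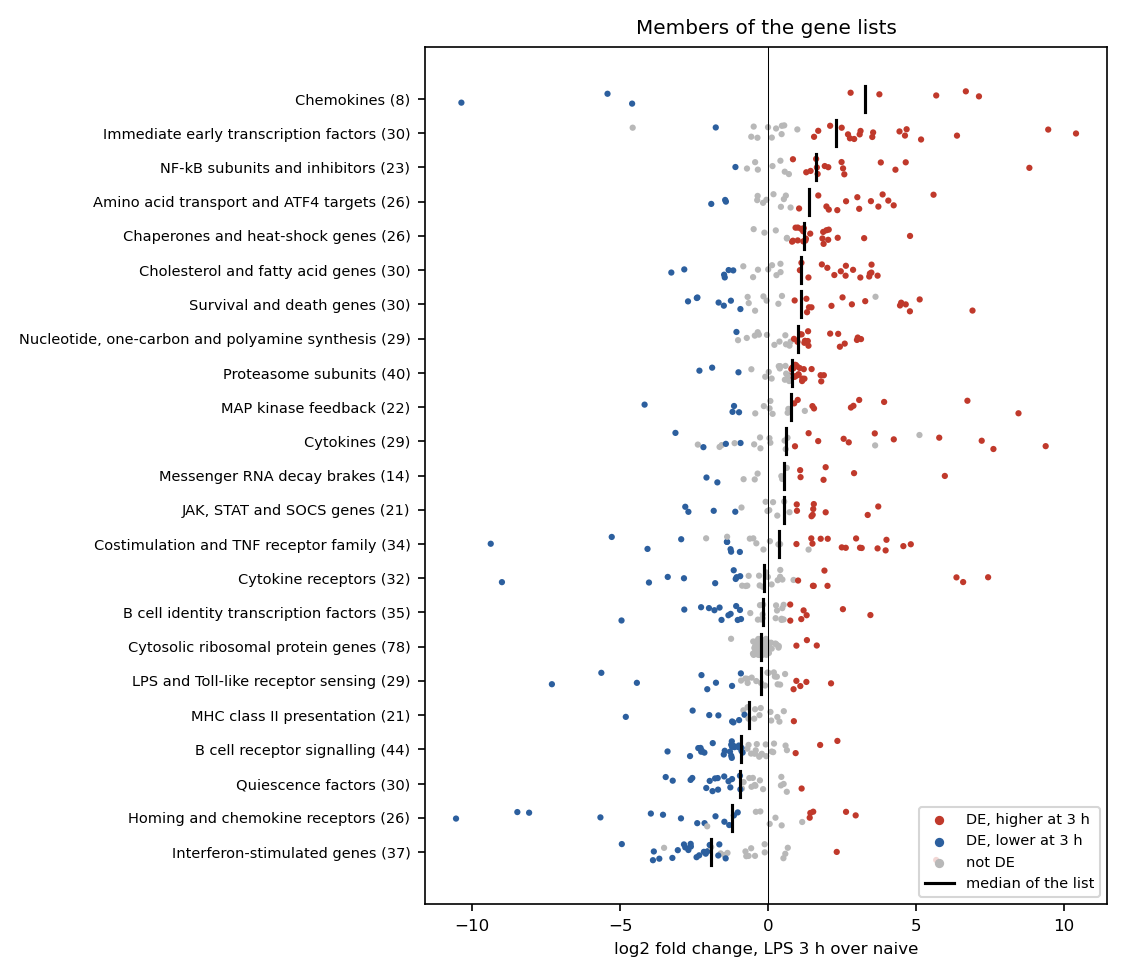
Log2 fold change of each tested member of 23 gene lists (the number tested in parentheses), in red where DE and higher at 3 h, in blue where DE and lower, and in grey where not DE, with the median of each list as a black bar. The lists are ordered by their median, from chemokines (3.28) to interferon-stimulated genes (-1.93), and cytosolic ribosomal protein genes gather near 0.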

How the data were processed

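RNA-Seq libraries of sorted mouse B cells were prepared from polyadenylated RNA and sequenced as paired ends. Alignment by the authors was to mm10 in Rsubread, and featureCounts with its inbuilt exons gave a count per Entrez gene. The submitters' processing notes name CASAVA 1.8.2, and whether counting used strand is not given in the sources used here. The deposited values are counts of reads per gene, neither normalized nor filtered, and groups follow the sample labels.

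Of 27179 genes, 25275 were matched by Entrez identifier to RefSeq genes of GRCm38.p6. Mitochondrial genes, X and Y genes, ribosomal RNA, variable immunoglobulin segments and unmatched identifiers were set aside, which left 23700. With edgeR 4.0.16 (R 4.3.3), genes were filtered by filterByExpr (12750 kept), scaled by TMM and fitted over all 12 libraries by glmQLFit in robust mode. glmTreat tested 3 h against naive beyond 1.5-fold, with Benjamini-Hochberg adjustment at 0.05. RPKM were computed from the counts, the exon lengths of the file and TMM-scaled library sizes, and CPM of marker lists from total counts. A library total of 23026619 or more counts places 3 counts, taken as the floor, at 0.13 CPM or less, and floors cover counting error only. On simulated data with 200 of 12304 genes changed, glmTreat recovered 84.0% of them in this comparison (48.0% at 2-fold, 88.0% at 3-fold and 100% above), with 0 false calls. The changed genes left out the scarcest genes, and rises and falls were equal in number. In the data 45.3% of the tested genes were called, so these rates need not hold there.

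Members and gene lists were chosen with earlier results of these data known. The genes named were 4 markers, the anchor genes of each list, the 15 largest rises and falls with a mean log2 CPM of at least 5, up to 3 rises and 3 falls per list with at least 2, the 10 most abundant of each group and 5 genes at the floor in each direction, and other list members named were chosen after their values were seen. Some genes that this rule names are not reported here. No set test was run. Alternatives were the scaling, DESeq2 1.42.0, the F-test, the filter, the samples fitted, a replicate block and each library left out.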

Additional observations from a re-analysis of the deposited data

Results flagged for a closer look

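X-linked genes were outside the main test, because the study set genes of the sex chromosomes aside. When they were put back into the same fit, 3 of the 17 tested of 20 X-linked immune genes rose (17.6%) and 8 fell (47.1%). Over all genes in that fit 20.1% rose and 24.1% fell, so the share of rises was near that of all genes. Btk and Tlr7 were among the falls. Il2rg, the common gamma chain that pairs with IL2RA, stood at 382 and 397 CPM in naive replicates 1 and 2 and at 806 and 746 CPM at 3 h, a log2 fold change of 1.14. Pim2, a kinase related to PIM1, went from 40.1 and 35.5 CPM to 93.6 and 98.7 CPM (1.49), and Xiap, an inhibitor of caspases, from 68.3 and 74.0 CPM to 130 and 96.1 CPM (0.81). For all 3 both 3 h libraries lay above both naive libraries, as they did for 2673 of the 2674 rises of the main test. Such separation follows largely from the call.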

How the results depend on the processing

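Of the alternatives to the counts of 2674 rises and 3100 falls, the F-test with no fold threshold gave 4419 and 4633, DESeq2 2175 and 2414, and the 4 compared libraries alone 2328 and 2880. Leaving out 1 library gave 2469 to 2641 rises and 2782 to 3041 falls, and under no alternative was a gene called in the opposite direction. Replicate numbers were not taken as pairs in the main fit. The deviations of same-numbered naive and 3 h libraries had a correlation of 0.06 across genes, which cannot show whether samples shared a mouse or a day. With a replicate block the counts were 2664 and 3089. Of the named genes, the block ended the call of Il18 (adjusted p = 0.052) and brought that of Irf7 (-1.33, adjusted p = 0.037).

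The median change below a mean log2 CPM of 2 was -0.65 in the fit. Between the replicate 2 libraries alone it was -0.47, but as a difference of log2 CPM with a prior count, which is another measure. The median at 8 and above, 0.29, reversed to -0.23 with bins by log2 RPKM, which hold other genes. Genes not DE whose sign reversed were Chuk (-0.065), Fcer2a (-0.15) and H2-Ab1 (-0.13) with library size scaling, and, with 1 library left out, Bach2 (-0.53 to 0.097), Chuk (-0.011 to 0.32), Cxcr4 (-0.15 to 0.80), Fcer2a (-0.056 to 0.15), Il4ra (-0.21 to 0.14) and Slc2a1 (-0.32 to 0.18).
Library size scaling ended the calls of Cct2, Grb2, Ifi30, Map3k7 and Tgfb1 and brought falls of Abca1, Ccnd3, Irf7, Ly96, Lyn and Rrm2. The cause of these shifts was not tested. With 2 libraries a group, precision is limited most for genes with few counts.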

Other observations

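Among the genes set aside, 86 of 232 tested variable immunoglobulin segments fell at 3 h (37.1%), with a median log2 fold change of -0.80. Of 445 tested genes of the sex chromosomes, 67 rose (15.1%) and 104 fell (23.4%). Over all genes in the fit with these classes kept, 20.1% rose and 24.1% fell. Of the immune genes on the X chromosome, Tlr7, an endosomal RNA sensor, and Btk, a kinase of the antigen receptor, fell by 1.43 and 0.90 on the log2 scale. Other motifs were counted in the same promoters without a test. The E-box CACGTG was in 10.2% of promoters of genes that rose, 7.27% of those that fell and 7.92% of those not DE. The ETS site CCGGAAGT was in 6.87%, 3.38% and 6.64% in the same order.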
